A study of Homo sapiens with 10 samples.

Results

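The genes described here make cholesterol, sense it and move it. They were chosen by symbol, 30 of the 20030 genes of the deposited table: 7 of the mevalonate arm (ACAT2, HMGCS1, MVK, PMVK, MVD, IDI1, FDPS), the branch-point synthase GGPS1, 11 of the squalene and sterol arm (FDFT1, SQLE, LSS, CYP51A1, TM7SF2, MSMO1, NSDHL, HSD17B7, EBP, SC5D, DHCR7), 4 that control the transcription factor SREBP2 (SREBF2, SCAP, INSIG1, INSIG2), 6 of sterol transport, uptake and efflux (STARD4, TMEM97, NPC1L1, ABCA1, ABCG1, MYLIP) and the lipid enzyme LPIN1. Not every gene of the pathway is in the set. Of the 30 genes, 28 had a mean of at least 1 FPKM (fragments scaled to transcript length and library size) over the 10 libraries and were tested; STARD4, a sterol carrier with a mean of 0.458 FPKM, and ABCG1, a sterol exporter with a mean of 0.104 FPKM, were not tested.

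Liver cells make cholesterol from acetyl-CoA. The mevalonate arm builds farnesyl diphosphate, squalene synthase and squalene epoxidase commit it to sterols, and a chain of demethylases, reductases and isomerases turns lanosterol into cholesterol. When sterol in the endoplasmic reticulum is low, SCAP escorts the SREBP2 precursor to the Golgi, where proteases release the factor that raises transcription of these enzymes; when sterol is high, the INSIG proteins hold SCAP back. Oxysterols made from excess cholesterol act on the liver X receptors, which raise the exporters ABCA1 and ABCG1 and the ubiquitin ligase MYLIP.

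RNA of 3 human liver cancer cell lines was sequenced, with 1 library for each line and treatment. Huh7, a hepatocellular carcinoma line, was treated with vehicle (control) or a CDK4/6 inhibitor; the lines labelled PLC and 97H received vehicle, the CDK4/6 inhibitor, an inhibitor of the nuclear export receptor XPO1 (KPT330 in the titles, the drug selinexor) or the combination of both. CDK4 and CDK6 are the kinases that start the cell cycle with cyclin D; the drug against them is not named, and the labels state no dose, time or batch. The replicate of a treatment is the cell line, so that a treatment has 2 or 3 libraries and a line 2 (Huh7) or 4 (PLC and 97H); nothing says that any library came from a separate culture of the same kind, and p-values measure only the spread between these libraries. Between 14033 and 15264 genes were above 0 FPKM in a library; FPKM keeps no depth, so the read depth behind a value is unknown. Huh7 and PLC held the 8 hepatocyte markers examined, with summed levels of 5708 to 7583 FPKM in Huh7 and 748 to 1933 FPKM in PLC, whereas 97H held 24.3 to 59.2 FPKM, with 5 to 7 of the 8 above 1 FPKM. The 2 biliary markers summed to 423 to 669 FPKM in Huh7 and 97H and to at most 1.52 in PLC, and the endothelial markers to at most 4.26 in any library.

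The DNA before the start sites was read from RefSeq promoter windows (GRCh38.p14, 250 bases before to 50 after the start), which matched 26 of the 30 genes, in 36 windows. FDFT1, SQLE, ACAT2 and ABCG1 had no match. Shown are the 200 bases before the start for a pair of enzymes far higher in Huh7 (HMGCS1, MSMO1) and the set's most abundant gene (EBP). Those of a reductase and a sensor lower after the XPO1 inhibitor, though not called (DHCR7, INSIG1), and of the controlling factor's gene (SREBF2) follow. Each runs 5′ to 3′ toward the start, and capitals mark CCAAT boxes (CCAAT or, on the other strand, ATTGG) and the core of a sterol regulatory element (TCACNCCAC).
HMGCS1 (chr5:43313413-43313612, minus strand): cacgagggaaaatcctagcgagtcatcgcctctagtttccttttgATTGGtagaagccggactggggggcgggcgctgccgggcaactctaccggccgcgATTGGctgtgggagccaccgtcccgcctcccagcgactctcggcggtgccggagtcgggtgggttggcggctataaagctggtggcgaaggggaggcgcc
MSMO1 (chr4:165327469-165327668, plus strand): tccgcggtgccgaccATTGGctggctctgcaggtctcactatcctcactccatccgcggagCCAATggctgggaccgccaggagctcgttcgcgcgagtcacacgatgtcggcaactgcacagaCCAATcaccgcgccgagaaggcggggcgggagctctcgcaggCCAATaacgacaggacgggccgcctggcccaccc
EBP (chrX:48521608-48521807, plus strand): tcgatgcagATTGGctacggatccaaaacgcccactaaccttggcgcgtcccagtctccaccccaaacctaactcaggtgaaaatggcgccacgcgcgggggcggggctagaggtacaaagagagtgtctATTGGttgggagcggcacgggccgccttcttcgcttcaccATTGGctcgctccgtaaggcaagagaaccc
DHCR7 (chr11:71448394-71448593, minus strand): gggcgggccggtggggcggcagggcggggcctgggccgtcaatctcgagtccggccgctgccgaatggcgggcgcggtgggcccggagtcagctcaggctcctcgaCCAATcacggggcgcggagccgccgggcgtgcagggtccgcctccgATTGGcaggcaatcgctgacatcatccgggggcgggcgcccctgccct
INSIG1 (chr7:155297678-155297877, plus strand): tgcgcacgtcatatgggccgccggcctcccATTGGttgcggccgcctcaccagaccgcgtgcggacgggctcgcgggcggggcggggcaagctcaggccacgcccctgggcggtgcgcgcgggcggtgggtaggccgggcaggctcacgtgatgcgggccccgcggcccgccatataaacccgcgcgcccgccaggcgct
SREBF2 (chr22:41832905-41833104, plus strand): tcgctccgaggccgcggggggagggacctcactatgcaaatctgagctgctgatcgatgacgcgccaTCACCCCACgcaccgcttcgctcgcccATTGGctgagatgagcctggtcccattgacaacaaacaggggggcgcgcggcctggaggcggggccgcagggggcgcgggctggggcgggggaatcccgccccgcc

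A CCAAT box, the binding site of NF-Y, a partner of SREBP at sterol promoters, stood in the windows of 20 of the 26 genes (76.9%), against 39.7% of the 27305 genes with a window. By window it stood in 22 of 36, against 34.6% of all windows. These backgrounds take in every gene with a window, whether or not it was expressed here. The printed stretches hold 4 CCAAT boxes in MSMO1, 3 in EBP, 2 each in HMGCS1 and DHCR7 and 1 each in INSIG1 and SREBF2. Where a gene had several windows, the stretch with the most CCAAT boxes was printed, so such a count is the highest of its windows. HMGCS1 had a further window in which no CCAAT box was matched. The sterol element core TCACNCCAC matched in SREBF2 alone, at positions -133 to -125 from the start, against 1.39% of all genes; other spellings of the element were not searched. A GC box (GGGCGG) was in 24 of the 26 genes (92.3%, against 48.3% of all) and an E-box (CACGTG) in 5 (19.2%, against 8.77%): ABCA1, INSIG1, LSS, SC5D and SCAP. Both strands were searched, the motifs do not contain each other, and the shares are descriptions of letters in these windows.

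The levels of the set were compared first, since FPKM is scaled per length. EBP, the sterol isomerase, was the most abundant, with a mean of 168 FPKM over the 10 libraries, followed by DHCR7, the reductase of the last step, at 105 FPKM. FDPS (86.1 FPKM) and ACAT2 (84.8 FPKM) came next, and their ranges overlapped. The mevalonate and sterol enzymes ran from 4.08 FPKM in SC5D to EBP. The regulators SREBF2 and SCAP were at 23.5 and 23.2 FPKM, INSIG1 at 17.5 FPKM, and the transport and liver X receptor genes NPC1L1, ABCA1 and MYLIP at 1.25 to 1.64 FPKM; TMEM97, the sigma-2 receptor, at 55.7 FPKM, was the exception among the transport genes.

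**Figure D1:**
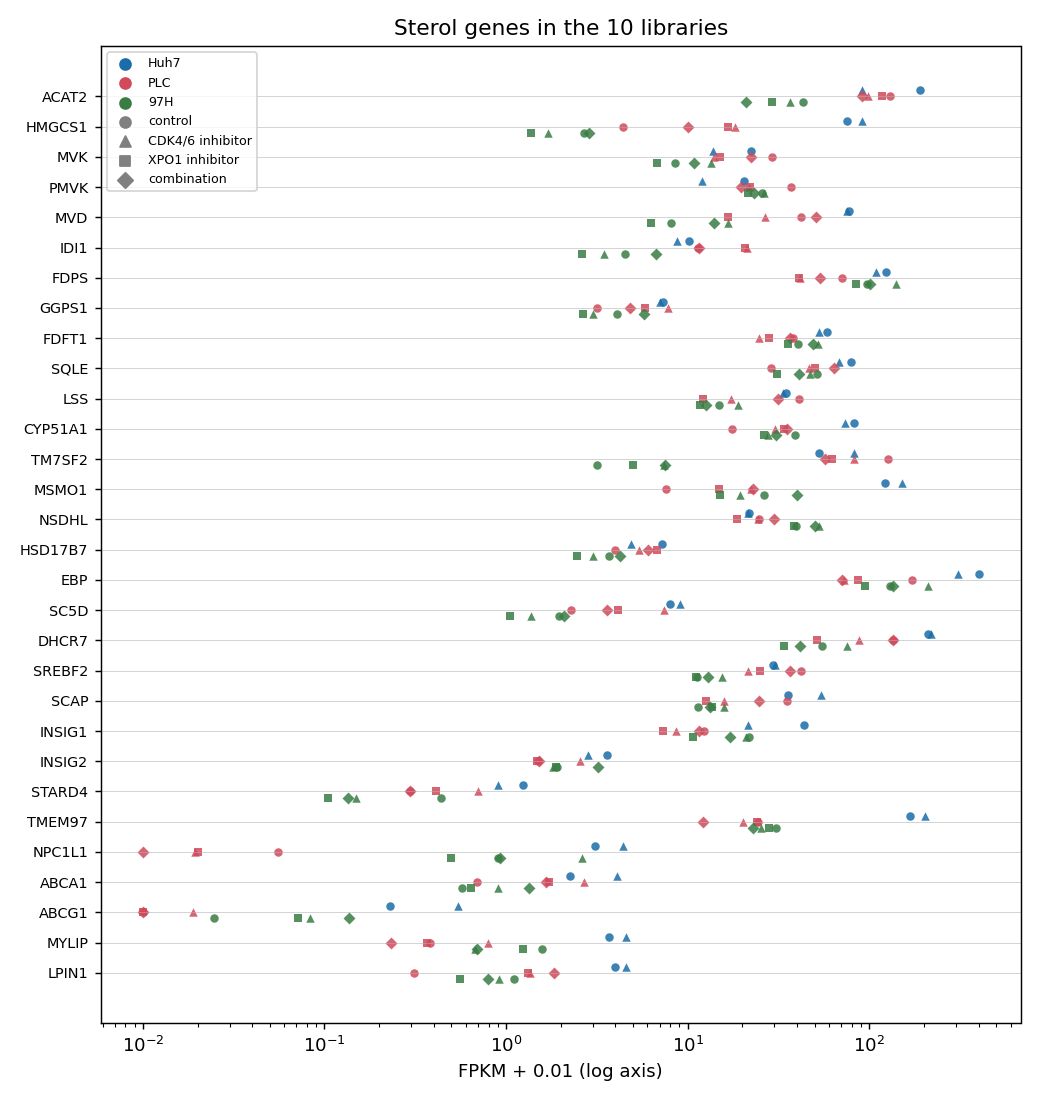
FPKM of the 30 genes (rows, by role from ACAT2 of the mevalonate arm to LPIN1) in the 10 libraries, on a log axis with 0.01 added so that zeros can be drawn; colour gives the line and marker shape the treatment. HMGCS1, MSMO1 and TMEM97 show the Huh7 libraries apart, and TM7SF2 shows 97H apart.

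All calls within the set came from comparisons of lines. Huh7 had the highest levels of most of the set: against 97H, 16 of the 28 tested genes were higher and 1 was lower, and against PLC 11 were higher and 0 were lower (limma, adjusted p under 0.05 over 10477 genes). Of all tested genes, 20.1% were called higher and 15.1% lower in Huh7 than in 97H, and 13.4% higher and 14.9% lower than in PLC. NPC1L1 and MYLIP, called higher in both comparisons, reached the mean of 1 FPKM only with the Huh7 libraries. Their direction was thus partly set by the filter. The median log2 difference of the 28 genes was 1.12 against 97H and 0.83 against PLC, beside 0.18 and -0.05 over all tested genes. Every Huh7 library lay above every 97H library for 23 of the 28 genes, as for 34.1% of all genes, and below for 2 (NSDHL and PMVK), as for 23.7%. Every Huh7 library lay above every PLC library for 17, as for 21.2% of all genes, and below for 1 (IDI1), as for 24.4%. All log2 differences here are on the scale of log2(FPKM + 1), which understates the change of genes near 1 FPKM. The hepatocyte markers moved along: 8 of 8 were called higher in Huh7 than in 97H, and 6 of 8 higher and 1 (SERPINA1, -1.22) lower than in PLC. The 2 tested fibroblast markers, COL1A1 and LUM, were called higher in Huh7 than in either line, and CD68, an immune marker, lower (-2.80 against PLC and -3.17 against 97H). The part of these differences in the sterol values was not tested. Each library is bulk RNA of a single cell line, so the markers are read as levels of genes and not as counts of cell types. Differences between cells within a line cannot be read from it.

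PLC and 97H differed in both directions. Of the 28 genes, 9 were called higher in PLC and 4 lower, beside 31.1% and 18.1% of all tested genes, so the share called was close to that of all genes; the medians were 0.30 and 0.26. With the trends on GC content and length taken out, 22 of the 28 were called (78.6%), beside 61.5% of all genes. Every PLC library lay above every 97H library for 8 genes (27.1% of all genes did so) and below for 3 (16.5%). In the mevalonate arm 5 of 7 genes were higher in PLC and 1 was lower.

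**Figure D2:**
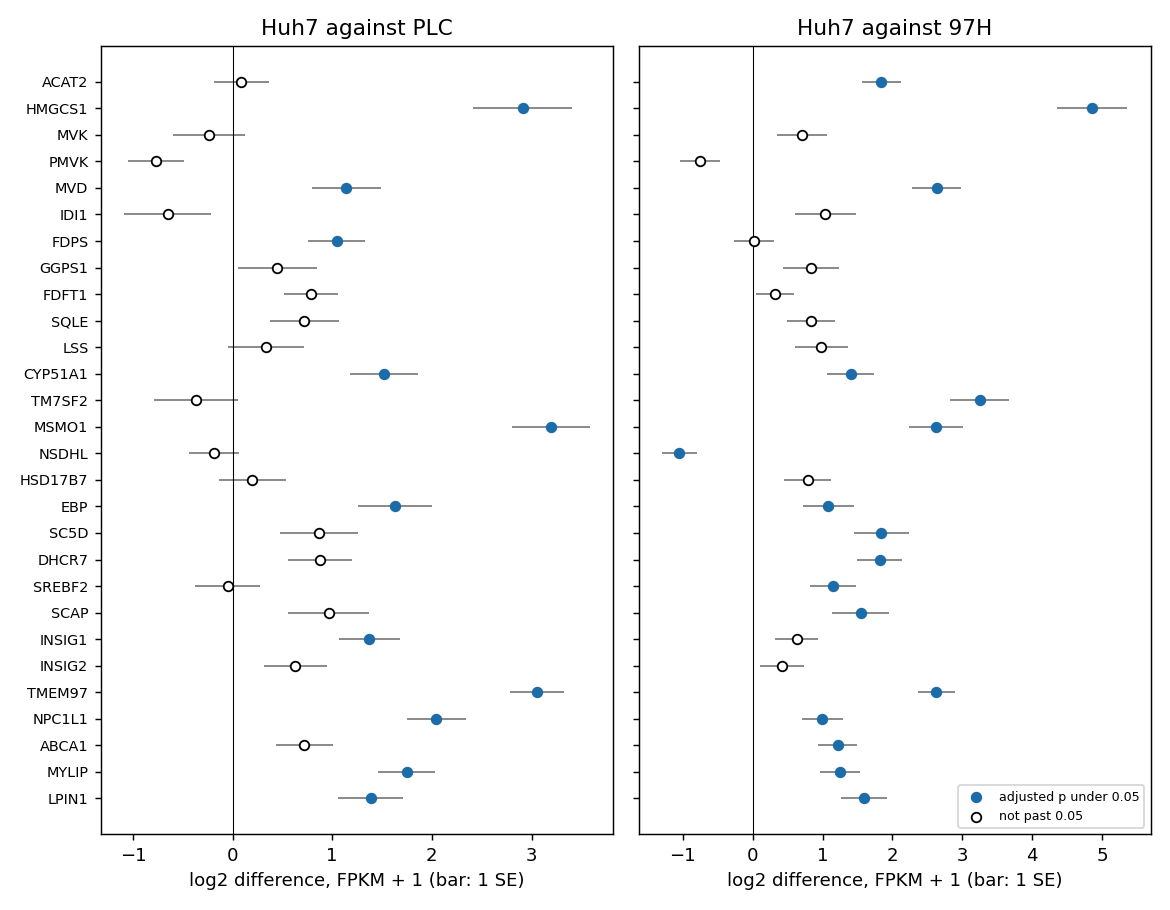
The log2 difference on the FPKM + 1 scale between Huh7 and PLC (left) and Huh7 and 97H (right) for the 28 tested genes, with bars of 1 SE from the fit; filled points are called. In both panels HMGCS1, MSMO1 and TMEM97 lie far to the right, while TM7SF2 does so against 97H and not against PLC.

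In the values that follow, the order is control then CDK4/6 inhibitor for Huh7, and control, CDK4/6 inhibitor, XPO1 inhibitor and combination for PLC and 97H. HMGCS1, which makes HMG-CoA, had the widest gap: it measured 75.1 and 90.8 FPKM in Huh7, 4.37, 18.3, 16.65 and 9.96 in PLC, and 2.68, 1.69, 1.36 and 2.84 in 97H. The lines do not overlap and stand in the order Huh7, PLC, 97H. The log2 difference was 4.86 (SE 0.50, limma adjusted p = 5.289e-05) between Huh7 and 97H, 2.91 (SE 0.50, adjusted p = 0.001834) between Huh7 and PLC, and 1.95 (SE 0.38, adjusted p = 0.001911) between PLC and 97H. Among the PLC libraries the control was the low one and each treated library was at least 2.28 times as high.

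ACAT2, the cytosolic thiolase that opens the arm, measured 191 and 91.04 FPKM in Huh7, 130 to 90.6 in PLC (130, 98.2, 118 and 90.6) and 42.8, 36.7, 29.01 and 20.96 in 97H. Here 97H alone stood low, by 1.84 (SE 0.28, adjusted p = 0.0005935) against Huh7 and 1.76 (SE 0.21, adjusted p = 8.1e-05) against PLC on the log2 scale. MVD, the decarboxylase that yields isopentenyl diphosphate, measured 76.9 and 75.6 FPKM in Huh7, 42.1, 26.6, 16.65 and 50.95 in PLC, and 8.10, 16.6, 6.30 and 13.9 in 97H. Its Huh7 libraries were the closest pair of the arm and lay above all others, by 2.63 (SE 0.35, adjusted p = 0.0002729) against 97H.

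The other mevalonate genes put the lines in other orders. IDI1, the isopentenyl diphosphate isomerase, was highest in PLC, at 11.4, 21.2, 20.5 and 11.45 FPKM, beside 10.1 and 8.67 in Huh7 and 4.52, 3.45, 2.61 and 6.68 in 97H; the difference between PLC and 97H was 1.69 (SE 0.33, adjusted p = 0.001936), and that between Huh7 and PLC did not pass (adjusted p = 0.3034). MVK, mevalonate kinase, measured 22.2 and 13.8 FPKM in Huh7, 29.3, 13.9, 15.1 and 22.3 in PLC and 8.48, 13.4, 6.77 and 10.8 in 97H, higher in PLC than in 97H by 0.94 (SE 0.27, adjusted p = 0.01656). FDPS, which makes farnesyl diphosphate, was lowest in PLC, at 70.99, 41.5, 40.8 and 53.4 FPKM, beside 123 and 109 in Huh7 and 97.3, 140.2, 84.7 and 101 in 97H. PLC was below 97H by 1.03 and Huh7 above PLC by 1.05 on the log2 scale (adjusted p = 0.003101 and 0.02106, limma), while Huh7 and 97H differed by 0.02 (SE 0.29, adjusted p = 0.9732). PMVK, the second kinase, was called in no line comparison and measured 20.3 and 11.97 FPKM in Huh7, 37.1, 21.6, 22 and 19.6 in PLC and 25.8, 26.2, 21.4 and 23.1 in 97H. GGPS1, which extends farnesyl to geranylgeranyl diphosphate for protein prenylation, ranged from 2.63 to 7.73 FPKM over the 10 libraries with no line called.

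In the sterol arm, MSMO1, a methylsterol oxidase, measured 121.5 and 151 FPKM in Huh7, 7.54, 22.2, 14.8 and 22.7 in PLC and 26.2, 19.4, 14.98 and 40.1 in 97H. Huh7 was higher by 3.20 (SE 0.39, limma adjusted p = 0.0002159) against PLC and 2.62 (SE 0.39, adjusted p = 0.0005625) against 97H, and PLC and 97H overlapped. CYP51A1, the lanosterol demethylase, showed the same order at smaller size: 81.9 and 73.3 FPKM in Huh7, 17.5, 30.1, 33.97 and 35.1 in PLC, and 39.01, 27.8, 26.4 and 30.7 in 97H, with Huh7 higher by 1.52 and 1.40.

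TM7SF2, a sterol reductase, set 97H apart from both other lines. It measured 52.6 and 82.4 FPKM in Huh7 and 127, 81.9, 62.03 and 57.1 in PLC, but 3.15, 7.34, 4.96 and 7.51 in 97H. The log2 difference from 97H was 3.61 (SE 0.32, adjusted p = 1.072e-05) in PLC and 3.25 (SE 0.42, adjusted p = 0.0002487) in Huh7, and Huh7 and PLC overlapped. NSDHL, which acts beside MSMO1 in removing methyl groups, ran the other way, with 21.6 and 21.3 FPKM in Huh7, 24.8, 24.45, 18.75 and 29.95 in PLC and 39.2, 52.7, 38.6 and 50.3 in 97H. It was the only gene of the set called lower in Huh7 than in 97H (-1.05, SE 0.25, adjusted p = 0.008569), and it was lower in PLC than in 97H too (-0.86, SE 0.19, adjusted p = 0.003682).

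The genes of the last steps were again higher in Huh7. EBP measured 399.6 and 306 FPKM in Huh7, 171, 72.75, 86.4 and 71.0 in PLC and 129, 211, 94.25 and 135 in 97H, and was higher in Huh7 by 1.63 against PLC and 1.09 against 97H (adjusted p = 0.00862 and 0.04464, limma). DHCR7 measured 211 and 218 FPKM in Huh7, 136, 87.3, 51.3 and 135 in PLC and 55.1, 75.6, 33.8 and 41.5 in 97H, and was higher in Huh7 than in 97H by 1.82 and in PLC than in 97H by 0.94 (adjusted p = 0.001713 and 0.009609). SC5D, the desaturase before it, measured 7.93 and 9.09 FPKM in Huh7, 2.26, 7.44, 4.10 and 3.57 in PLC and 1.94, 1.35, 1.05 and 2.08 in 97H; the log2 difference between Huh7 and 97H was 1.84 (adjusted p = 0.005144) and that between PLC and 97H 0.97 (adjusted p = 0.02148). FDFT1, SQLE, LSS and HSD17B7 were called in no line comparison. Of these 4, SQLE, squalene epoxidase, ranged from 28.7 to 79.1 FPKM and FDFT1, squalene synthase, from 24.5 to 58.1, with both Huh7 libraries on top in each.

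Among the regulators, SREBF2, the gene of SREBP2, measured 29.4 and 30.02 FPKM in Huh7, 42.0, 21.4, 24.9 and 36.4 in PLC and 11.3, 15.4, 11.1 and 12.9 in 97H. It was lower in 97H than in Huh7 by 1.15 (SE 0.32, adjusted p = 0.02076, limma) and than in PLC by 1.20 (SE 0.25, adjusted p = 0.002709), and the other lines overlapped. SCAP measured 35.5 and 54.4 FPKM in Huh7, 35.2, 15.9, 12.6 and 24.8 in PLC and 11.3, 15.7, 13.6 and 13.3 in 97H, and was called between Huh7 and 97H (1.55, adjusted p = 0.01478) and not between the other pairs. INSIG1, itself an SREBP target, was lowest in PLC, at 12.3, 8.59, 7.26 and 11.5 FPKM, beside 43.7 and 21.5 in Huh7 and 21.6, 20.8, 10.7 and 17.0 in 97H. Huh7 was above PLC by 1.37 (adjusted p = 0.007452) and PLC below 97H by 0.75 on the log2 scale (adjusted p = 0.02194). INSIG2 stayed between 1.47 and 3.60 FPKM in all libraries and was not called.

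Among the transport genes TMEM97 gave the smallest p between Huh7 and PLC. It measured 168 and 202 FPKM in Huh7, 24.35, 20.2, 24.1 and 12.1 in PLC and 30.5, 25.3, 27.98 and 22.98 in 97H, so that both Huh7 libraries were far above the rest. The log2 difference was 3.05 (SE 0.27, limma adjusted p = 2.661e-05) against PLC and 2.63 (SE 0.27, adjusted p = 5.153e-05) against 97H. NPC1L1, the sterol importer of the intestine and of bile canaliculi, measured 3.08 and 4.40 FPKM in Huh7 and 0.888, 2.62, 0.485 and 0.919 in 97H. In PLC it was near absent, at 0.0454, 0.00945, 0.0101 and 0 FPKM, and lower than in Huh7 by 2.04 on the log2(FPKM + 1) scale (adjusted p = 0.0006507), which understates the gap. Both tested liver X receptor targets had their highest library in Huh7. MYLIP measured 3.66 and 4.54 FPKM there, 0.372, 0.782, 0.356 and 0.224 in PLC and 1.57, 0.662, 1.23 and 0.678 in 97H (1.75 against PLC, 1.25 against 97H). ABCA1, which loads cholesterol onto apolipoprotein A-I, measured 2.24 and 4.04 FPKM in Huh7, 0.683, 2.67, 1.71 and 1.64 in PLC and 0.562, 0.887, 0.629 and 1.32 in 97H, with a difference of 1.22 (adjusted p = 0.008048) against 97H and 0.72 (adjusted p = 0.0865) against PLC. LPIN1, a phosphatidate phosphatase, measured 3.96 and 4.55 FPKM in Huh7, 0.2997, 1.34, 1.31 and 1.82 in PLC and 1.09, 0.900, 0.544 and 0.788 in 97H (1.39 against PLC, 1.60 against 97H). With a pseudocount of 0.1 in place of 1 these low genes moved further apart: NPC1L1 differed by 4.70 between Huh7 and PLC and by -3.29 between PLC and 97H, MYLIP by 2.85 and LPIN1 by 2.11 between Huh7 and PLC, and ABCA1 by 1.93 and LPIN1 by 2.41 between Huh7 and 97H. The 2 genes too low to test also had their highest level in Huh7: STARD4 at 1.24 and 0.896 FPKM and ABCG1 at 0.220 and 0.535.

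How far these calls rest on single libraries differed between genes. NPC1L1 and MYLIP averaged 0.016 and 0.433 FPKM in PLC and 1.228 and 1.034 in 97H, and passed the filter only with Huh7. That they stayed higher in Huh7 is therefore partly built into their being tested. Counts of calls left are given without the share of all genes called in the same refit. Huh7 has only 2 libraries, and leaving 1 out assumes that the other varies like those of the other lines. Without the Huh7 control, 5 of the 11 calls against PLC and 9 of the 17 against 97H were left; without the Huh7 CDK4/6 inhibitor library, 6 and 9 were left. In each of the 16 alternatives run, HMGCS1, MSMO1, TMEM97, NPC1L1 and MYLIP were called between Huh7 and PLC, and ACAT2, HMGCS1, MVD, TM7SF2, MSMO1, DHCR7 and TMEM97 between Huh7 and 97H. The weakest calls were EBP and NPC1L1 between Huh7 and 97H, each called in 6 of 16. Without the 97H control, EBP differed by 0.68 (limma adjusted p = 0.159). Between PLC and 97H, 9 of the 13 calls stood in all 17 alternatives; MVK, SC5D, DHCR7 and INSIG1 did not. DHCR7 was at 0.62 (adjusted p = 0.1135) with median ratio scaling, SC5D at 0.70 (adjusted p = 0.07044) without the PLC CDK4/6 inhibitor library, and INSIG1 at -0.56 (adjusted p = 0.11) without the 97H CDK4/6 inhibitor library. SC5D stayed called with the trends on GC content and length taken out, at the smaller size of 0.60 (adjusted p = 0.007937).

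Counts in related lists are to be read beside the shares of all genes called: 20.1% higher and 15.1% lower in Huh7 than in 97H, and 31.1% and 18.1% in PLC than in 97H. SOAT2, which esterifies cholesterol in liver cells, measured 15.9 and 8.27 FPKM in Huh7 and at most 0.0631 FPKM in any other library; its log2 difference was 3.62 against 97H and 3.61 against PLC. It passed the filter through the Huh7 libraries alone, so its direction was set by the filter. SOAT2 was among 3 of 10 genes of sterol uptake, esterification and transport called higher in Huh7 than in 97H, with 0 called lower. The list holds 12 genes, of which these 10 were high enough to test. In fatty acid synthesis 4 of 10 were higher and 0 lower in Huh7 than in 97H, among them the desaturases FADS2 (3.12) and SCD (2.18). In the isoprenoid branch, which makes dolichol, ubiquinone and prenylated proteins, 6 of 8 genes were higher and 0 lower in PLC than in 97H, led by PDSS2 (2.37), and 5 of 8 were higher in Huh7 than in 97H. Of the genes that process SREBP and sense sterol, 2 of 8 were higher in Huh7 than in 97H, the proteases MBTPS1 (1.21) and MBTPS2 (1.73), and 3 of 8 higher in PLC than in 97H. Of the 5 liver X receptor and oxysterol genes, CYP27A1, a sterol hydroxylase, was lower in PLC than in 97H (-3.69) and higher in Huh7 than in PLC by 2.72.

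No gene of the set passed the test in a comparison of treatments. With limma, 0 of the 28 genes were called for the CDK4/6 inhibitor against control, for the XPO1 inhibitor against control, for the combination against control, against the CDK4/6 inhibitor or against the XPO1 inhibitor, or for the interaction of the inhibitors. Of all tested genes, 0.792% (83) were called for the combination against control and 0% in each of the other 5. At an unadjusted p under 0.05, 2, 2, 1, 0, 1 and 0 of the 28 genes were found in that order, beside 922, 258, 1301, 345, 520 and 60 of the 10477. With 2 or 3 lines, a gene that did not pass may still differ.

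For the CDK4/6 inhibitor in 3 lines, 1 of the 28 genes was higher in every line (ABCA1; 12.9% of all genes were) and 2 were lower in every line (ACAT2 and INSIG1; 10.3% of all). In PLC and 97H alone, 1 was higher in both (16.5% of all genes were) and 3 were lower in both (ACAT2, INSIG1 and TMEM97; 12.2% of all). With the trends on GC content and length of each library taken out, these counts became 13 higher (46.4%, beside 24.7% of all genes) and 5 lower (17.9%, beside 21.3%), HMGCS1 and MSMO1 being among the higher. ABCA1 went from 2.24 to 4.04 FPKM in Huh7, from 0.683 to 2.67 in PLC and from 0.562 to 0.887 in 97H, a log2 difference of 0.68 (SE 0.25, limma adjusted p = 0.5029). ACAT2 went from 191 to 91.04, from 130 to 98.2 and from 42.8 to 36.7 FPKM (-0.56, SE 0.24, adjusted p = 0.5501). INSIG1 went from 43.7 to 21.5, from 12.3 to 8.59 and from 21.6 to 20.8 FPKM (-0.51, adjusted p = 0.6196), and PMVK was at -0.48 (adjusted p = 0.6109). The size differed by line: INSIG1 and ACAT2 were about as much lower in Huh7 (0.492 and 0.477 of control), while INSIG1 in 97H was at 0.964 of control, and with the trends taken out its 97H difference turned from -0.05 to 0.24. Some markers of other cell types were higher with this drug, though not all in every line. In Huh7 the summed fibroblast markers were at 58.9 FPKM beside 16.65 in control, and the immune markers at 8.60 beside 2.82, of which CD68 alone was at 8.55 and 2.77. In PLC the fibroblast markers were at 0.175 beside 0.0948. The endothelial markers were at 1.08 beside 0.553 in Huh7 but lower in 97H, at 2.44 beside 3.31. Their part in the sterol values was not tested.

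The libraries of PLC and 97H shifted in opposite ways with the GC content of the transcript, and the set spans much of that range, from 36.9% in INSIG2 to 65.6% in MVD (median 48.0%, beside 50.1% for all tested genes with a value). With the CDK4/6 inhibitor, the rank correlation between GC content and the log2 difference from control was -0.83 over the 28 genes in PLC, 0.82 in 97H and -0.02 in Huh7, beside -0.68, 0.72 and 0.18 over 10391 genes; the points of a line share 2 libraries. In PLC, 12 of the 14 genes with the lower GC content were higher and 0 of the other 14. In 97H the counts were 1 and 13. HMGCS1 (40.2% GC) was 4.18 times and MSMO1 (38.1%) 2.94 times their control level in PLC, but 0.632 and 0.742 times in 97H. EBP (53.5%) was at 0.425 of its control in PLC and at 1.63 times in 97H. After a smooth trend on GC content and length was taken out of each library, the difference of HMGCS1 was 1.16 in PLC and 0.06 in 97H, and that of EBP -0.85 and 0.53. What made the libraries differ by GC content was not tested.

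**Figure D3:**
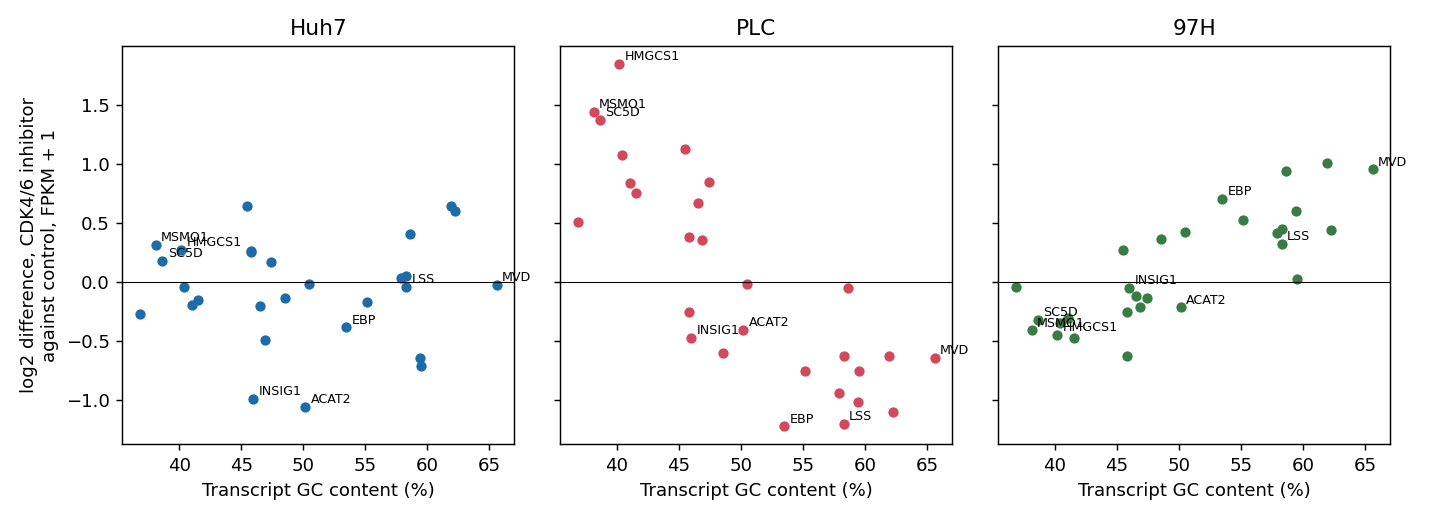
Log2 difference between the CDK4/6 inhibitor and control libraries (FPKM + 1 scale) against the GC content of the transcript in percent, for the 28 tested genes in each line, 8 of them labelled. Points fall from left to right in PLC, rise in 97H and show no slope in Huh7.

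With the XPO1 inhibitor, 16 of the 28 genes were lower in both PLC and 97H (57.1%), as were 16.8% of all tested genes, and 1 was higher in both (ABCA1; 21.7% of all). With the trends on GC content and length taken out, 14 were lower in both (50%), beside 21% of all genes. The median log2 difference was -0.20, beside 0.10 over all genes. By role, 5 of 7 mevalonate genes, 5 of 11 sterol genes, 3 of 4 regulators and 3 of 4 transport genes were lower in both lines; some of these, as INSIG2 and TMEM97 in PLC (-0.02 and -0.01), were lower by almost nothing. DHCR7 was at 136 and 51.3 FPKM in control and treated PLC and at 55.1 and 33.8 in 97H, a log2 difference of -1.04 (SE 0.37, limma adjusted p = 0.9683). LSS, lanosterol synthase, was at 41.1 and 12.1 FPKM in PLC and at 14.85 and 11.7 in 97H (-1.001, SE 0.44, adjusted p = 0.9683). INSIG1 was at 12.3 and 7.26 FPKM in PLC and 21.6 and 10.7 in 97H (-0.82, adjusted p = 0.9683), and MVD at 42.1 and 16.65 and at 8.10 and 6.30 (-0.80, adjusted p = 0.9683). In 97H 25 of the 28 genes were below control, beside 52.7% of all tested genes. HMGCS1 (0.509 of control), SC5D (0.539) and MSMO1 (0.572) were among the 25. PLC held 18 below control, beside 41.5% of all tested genes, while HMGCS1 there was at 3.81 times control and MSMO1 at 1.96 times. In PLC, too, the difference followed GC content (rank correlation -0.82 over the 28 genes, -0.72 over all), and in 97H less so (0.38 and 0.47). The summed hepatocyte markers were also lower in the PLC library with the XPO1 inhibitor, 748 FPKM beside 1933 in control, and in 97H they were 31.9 beside 24.3. Most of the PLC sums was SERPINA1, at 662 beside 1673 FPKM, while TTR was higher there, at 4.34 beside 2.67. The part of these markers in the sterol values was not tested.

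Fatty acid synthesis genes, which share SREBP control, were lower in both lines for 6 of 10 with the XPO1 inhibitor, beside 16.8% of all tested genes. Their median was -0.43, 0 of 10 were called, and FASN, the synthase itself, was at -1.45 (limma adjusted p = 0.9683). The trends on GC content and length were not taken out for this list, and a part of SREBP in these values was not tested. FASN measured 113 and 17.25 FPKM in control and treated PLC and 54.1 and 44.96 in 97H. In the list of SREBP processing and sterol sensing the median was 0.19, and in those of sterol uptake and transport, liver X receptors and the isoprenoid branch 0.12, -0.05 and 0.06, each with 0 called.

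The combination against control left 10 of the 28 genes higher in both lines (29.6% of all genes were) and 7 lower in both (24.2% of all), with a median of 0.05 beside 0.07. ACAT2 had the smallest p: it was at 130 and 90.6 FPKM in PLC and 42.8 and 20.96 in 97H (-0.76, SE 0.29, limma adjusted p = 0.3193). MSMO1 was at 7.54 and 22.7 FPKM in PLC and 26.2 and 40.1 in 97H, a log2 difference of 1.04 (SE 0.46, adjusted p = 0.4041). With those trends taken out it was 1.12 (limma adjusted p = 0.04938), the only gene of the set past the threshold in any treatment comparison under any alternative. The share of all genes called in that fit is not given here, so this call has no background beside it. TMEM97 was at 24.35 and 12.1 FPKM in PLC and 30.5 and 23.0 in 97H (-0.67, adjusted p = 0.4352), and ABCA1 at 0.683 and 1.64 and at 0.562 and 1.32 (0.61, adjusted p = 0.464). Of the related genes NPC2, the lysosomal sterol carrier, came closest, at 99.5 and 342 FPKM in PLC and 43.8 and 84.9 in 97H (1.36, adjusted p = 0.08757). Markers of other cell types were also higher in these libraries: the summed fibroblast markers were at 30.6 FPKM in 97H beside 3.47 in control (2 of 3 above 1 FPKM) and at most 0.268 in PLC, and the immune markers, of which CD68 alone was above 1 FPKM, at 127 beside 22.7 in PLC and 81.1 beside 48.5 in 97H. These markers were above control with the CDK4/6 inhibitor alone too. The immune markers were then at 64.0 FPKM in PLC and 65.9 in 97H, and the fibroblast markers at 8.25 in 97H. Their part in the sterol values was not tested.

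**Figure D4:**
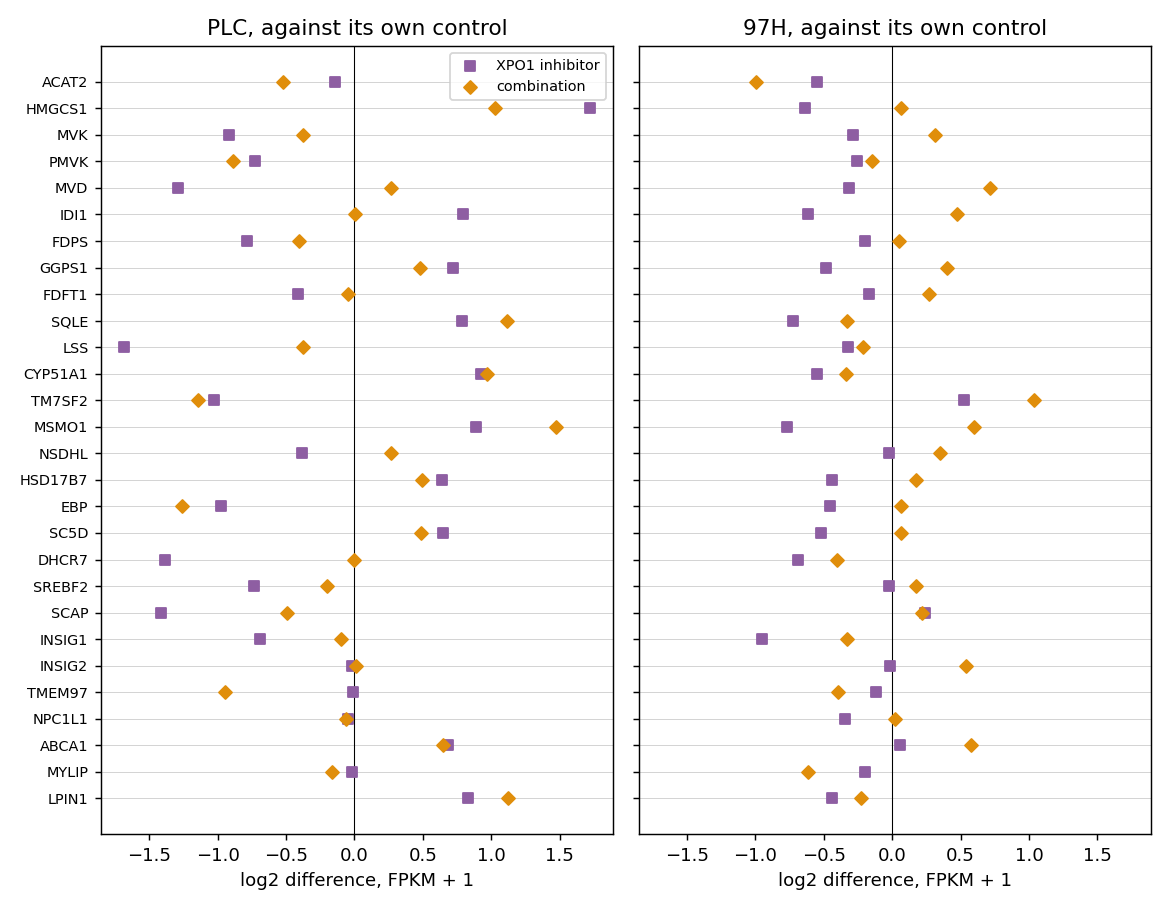
Log2 difference from the control of the same line (FPKM + 1 scale) for the 28 tested genes in PLC (left) and 97H (right); squares are the XPO1 inhibitor and diamonds the combination. In 97H the squares lie left of 0 for 25 genes and the diamonds for 10, beside 52.7% and 51% of all tested genes. In PLC the counts are 18 and 15, beside 41.5% and 42.7%.

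Set against the XPO1 inhibitor alone, the combination was higher in both lines for 14 of the 28 genes (50%), as for 24.2% of all tested genes, and lower in both for 3 (ACAT2, MYLIP and TMEM97), as for 28.3%. With the trends removed, 17 were higher in both (60.7%, beside 26% of all). This comparison and that of the XPO1 inhibitor with control share the XPO1 inhibitor libraries, so the 2 counts are not independent. All 11 sterol-arm genes and all 4 regulators had a mean difference above 0, as had 4746 of the 10477 tested genes. Only 7 of the 11 and 3 of the 4 were higher in both lines, and the rest differed in direction between the lines. MVD was at 16.65 and 50.95 FPKM in PLC and 6.30 and 13.9 in 97H, a log2 difference of 1.30 (SE 0.41, limma adjusted p = 0.7398). DHCR7 was at 51.3 and 135 FPKM in PLC and 33.8 and 41.5 in 97H (0.83, adjusted p = 1). MSMO1 was at 14.8 and 22.7 and at 14.98 and 40.1 (0.97, adjusted p = 1). TMEM97 was lower with the combination, at 24.1 and 12.1 and at 27.98 and 22.98 (-0.60, adjusted p = 1). Hepatocyte markers were higher in the combination libraries too, with 6 of 8 higher in both lines, 0 called, a median of 0.52 and sums of 1479 beside 748 FPKM in PLC and 59.2 beside 31.9 in 97H. Most of the PLC sums was SERPINA1, at 1380 beside 662 FPKM. AFP and ALB were lower in PLC, at 2.90 beside 17.2 and 3.29 beside 4.44, and higher in 97H. CD68 differed by 1.497 (adjusted p = 0.6072). Their part in the sterol values was not tested.

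Against the CDK4/6 inhibitor alone the combination was higher in both lines for 3 genes (CYP51A1, HSD17B7 and MSMO1; 20.7% of all genes) and lower in both for 5 (ACAT2, EBP, NPC1L1, PMVK and TMEM97; 21.7% of all). The smallest p belonged to NPC1L1 (-0.47), ACAT2 (-0.45), TMEM97 (-0.41) and MSMO1 (0.52), each with a limma adjusted p of 1. NPC1L1 turned to 0.065 without the 97H CDK4/6 inhibitor library, and in PLC it was at 0.00945 and 0 FPKM, so that its direction rests on 97H. In the interaction, which asks whether the combination differs from the sum of the inhibitors, the median of the 28 genes was 0.13, beside -0.11 over all genes. MVD (1.14), LSS (1.15), INSIG1 (0.87) and DHCR7 (0.92) had the smallest p, each with a limma adjusted p of 0.9999. The interaction values followed GC content, with a rank correlation of 0.56 over the 28 genes and 0.61 over all tested genes. These genes hold 65.6%, 58.3%, 46.0% and 58.3% GC in that order.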

How the data were processed

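Per the submitters' processing notes, CASAVA 1.8.2, STAR 2.4.2g1 and featureCounts of Subread were used with GRCh38; the step from counts to FPKM is not given. The authors deposited one table of FPKM for 20030 genes in 10 libraries; 27 symbols turned into dates were restored. Depth cannot be read from FPKM.

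The 10477 genes averaging 1 FPKM or more were tested on log2(FPKM + 1) with limma 3.58.1 in R 4.3.3 (trend, two-sided), with line as a block taken from the labels and Benjamini-Hochberg adjustment over all of them. CDK4/6 inhibitor and line comparisons used 10 libraries (4 residual degrees of freedom), the others the 8 of PLC and 97H (3). Line comparisons include treatment as a term. The fit was tested on simulated data. GC content and length trends (natural splines, 4 degrees of freedom) were removed per library in an alternative; pseudocount, filter, scaling, prior variance, block and single libraries were varied too. Called genes are named, with the smallest p filling up to 4, and up to 4 genes per related list. Members and lists were chosen with earlier results of these data known. Some genes are not reported here.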

Additional observations from a re-analysis of the deposited data

Results flagged for a closer look

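For 5 of the 28 tested genes (17.9%, beside 28.1% of all tested genes) the 3 treated libraries of PLC all lay on one side of their control and the 3 of 97H all on the other; the difference between the lines was not tested. The value is the mean log2 difference from control in PLC minus that in 97H. It was 1.248 for SQLE (PLC 28.7 FPKM in control and 46.3 to 63.5 treated, 97H 51.5 and 30.9 to 47.3). For CYP51A1 it was 1.333 (means 0.88 and -0.45) and for LPIN1 1.201 (0.93 and -0.27). The value of TM7SF2 was -1.787 (-0.93 and 0.86) and that of SCAP -1.301 (-1.001 and 0.30). TM7SF2 and SCAP are rich in GC (62.0% and 62.3%), and the other 3 hold 41.5% to 47.5%. With the trends on GC content and length taken out, LPIN1 alone of the 5 kept all treated libraries of the lines on opposite sides. The values became 0.74 for SQLE, 0.49 for CYP51A1, 0.72 for LPIN1, -0.79 for TM7SF2 and -0.45 for SCAP.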

How the results depend on the processing

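With the block kept and the GC content and length trends removed, 1 gene was called for the combination against control (MSMO1) and 22 between PLC and 97H, where 13 were called as deposited. Of all genes, 61.5% were called between PLC and 97H with the trends removed, beside 31.1% higher and 18.1% lower as deposited. Leaving out single libraries gave 5 to 14 calls between Huh7 and PLC, 9 to 20 between Huh7 and 97H and 10 to 17 between PLC and 97H, and 0 in each treatment comparison. The lowest counts for both Huh7 comparisons came without a Huh7 library, which leaves that line 1, and that of PLC against 97H without the XPO1 inhibitor library of either line. NPC1L1 in the combination against the CDK4/6 inhibitor ran from -0.995 to 0.065 over the libraries left out, the last without the 97H CDK4/6 inhibitor library; the cause was not tested. The other alternatives gave 8 to 16, 14 to 20 and 10 to 22 calls for the line comparisons, and 0 for each treatment comparison except the 1 above, with no replicate block as well. Apart from the 22, these counts are given without the share of all genes called in the same refit. They do not show whether the set changed more than the rest of the genes. FPKM without depth gives no counting error, and with 2 or 3 lines the treatment tests are weak.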
